A study of Rattus norvegicus with 12 samples.

Results

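Hepcidin and the genes around it were examined in rat liver after D-penicillamine: the hormone itself (Hamp), transcripts known to follow bone morphogenetic protein (BMP) signalling (Smad7, Id1, Id2, Id3), and genes that move or sense iron (Slc40a1, Tfrc, Hfe). The members were taken as all probe sets of an Affymetrix rat array annotated to exactly 1 of 10 gene names. This gave 14 probe sets of 8 genes, out of 15866 probe sets and 10411 genes in all. Tfr2 and Tf had no probe set of that single symbol and were not analysed here, and 1 probe set that Tf shares with Srprb was left out. The gene names were chosen by a reader of earlier results on these same arrays, that is, of their treated minus vehicle differences, so the differences between groups given below describe these rats and are not independent evidence.

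Treated animals (n = 8) were male Brown Norway rats, an inbred strain, given D-penicillamine at 150 mg/kg in 1 mL of tap water by gavage. D-penicillamine is a thiol drug that binds copper. Vehicle animals (n = 4) were of the same strain, sex and weight (150 to 170 g) and received water. Livers of both groups were taken at 6 h, so the data cover 1 strain, 1 sex, 1 dose and 1 time, with 1 array per rat and each array a separate animal.

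Hepcidin is a peptide hormone made by hepatocytes. It binds the iron exporter ferroportin, encoded by Slc40a1, and leads to its loss from the cell surface, so that less iron enters plasma. Its gene is switched on by BMP signalling through SMAD proteins, which also induces Smad7 and the Id genes, and by interleukin-6 through STAT3. Transferrin receptor, encoded by Tfrc, takes up transferrin-bound iron, and its mRNA is stabilised when cells lack iron.

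The sequences before the start sites of Hamp and Smad7 are shown because both genes are read here as BMP targets. They are the 250 bases before the gene start from RefSeq on GRCr8, written 5′ to 3′ on the strand of the gene, for Hamp at chr1:95300272-95300521 on the minus strand and for Smad7 at chr18:71263258-71263507 on the plus strand. Capitals mark 2 motifs, GGCGCC, the core of the BMP response element described in hepcidin promoters, and TTCNNNGAA, a STAT motif, where N is any base. Both read the same on either strand, and no matches overlapped.
Hamp: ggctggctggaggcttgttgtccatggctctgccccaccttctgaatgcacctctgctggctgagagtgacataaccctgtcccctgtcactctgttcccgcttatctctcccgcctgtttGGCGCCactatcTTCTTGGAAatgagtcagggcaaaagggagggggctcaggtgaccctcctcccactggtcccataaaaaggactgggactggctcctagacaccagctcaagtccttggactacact
Smad7: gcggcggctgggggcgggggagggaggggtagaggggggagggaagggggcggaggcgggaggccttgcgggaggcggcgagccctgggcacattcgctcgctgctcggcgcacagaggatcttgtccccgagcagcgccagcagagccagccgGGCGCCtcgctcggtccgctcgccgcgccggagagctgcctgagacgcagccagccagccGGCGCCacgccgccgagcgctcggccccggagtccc

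The Hamp window held GGCGCC at -129 to -124 and the STAT motif, as TTCTTGGAA, at -117 to -109, counted from the gene start. Of 33469 rat windows of this length, 8.69% held GGCGCC, 7.67% held TTCNNNGAA and 0.379% held both. The Smad7 window held GGCGCC at -96 to -91 and again at -36 to -31, as at least 2 copies did in 1.37% of windows. Of the 7 members with a window in the table, GGCGCC was found in 3, those of Hamp, Smad7 and Tfrc, and TTCNNNGAA in that of Hamp alone. The 7 windows were not placed alike. Those of Id1 and Id3 reached past the gene start into the gene. That of Slc40a1, at chr9:55543461-55543710, lay inside the gene's span, chr9:55525457-55633463. A match is a description of letters and not of a site in use.

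Across all 15866 probe sets the limma fit (Benjamini-Hochberg) called none at an adjusted p of 0.05, and 0 of the 14 members against a background of 0% of all probe sets. The smallest adjusted p of all probe sets was 0.147. At an unadjusted p under 0.05 stood 6 member probe sets on the higher side and 0 on the lower side, beside 2.68% of all probe sets higher and 3.48% lower. They were those of Hamp and Id1, both of Id2, and 1368896_at and 1368897_at of Smad7, so some genes count more than once. All values below are log2 values made with RMA (robust multi-array average, which puts the arrays on a common scale), and differences are D-penicillamine minus vehicle with the moderated standard error. Of the members, 12 probe sets lay higher and 2 lower in treated rats, the median being 0.16, beside 48.5% positive and a median of -0.0025 over all probe sets. A difference beyond 0.5 in either direction was seen for 3 member probe sets, those of Hamp and Id2, and for 0.315% of all probe sets.

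The arrays came from 1 chip lot and 1 scan day, and the scanner read all 4 vehicle arrays ahead of any treated one, so order of scanning and group cannot be told apart. The 3′ minus 5′ control value (mean log2 difference of the Gapdh and beta-actin control probe sets), which grows with RNA degradation, lay between 0.43 and 0.605 in treated rats. In vehicle rat 3 it was 1.185, against at most 0.585 in the other vehicle rats. The array farthest from its group mean was that of rat 4 among treated rats (root mean square distance 0.195) and that of rat 3 among vehicle rats (0.162). Values without 1 or both of them are given for several of the members below. Hepatocyte markers were bright in every rat, with a mean level of 13.25 to 13.43 in treated rats and 13.19 to 13.39 in vehicle rats over 8 genes.

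Hamp, the hormone, was on average higher after D-penicillamine, and its values were spread more widely among vehicle rats; the difference in spread was not tested. Its level in treated rats ran from 11.43 through a median of 12.15 to 12.41, and in vehicle rats it was 10.54, 11.32, 12.32 and 11.93. The groups overlapped: vehicle rat 3 stood above 6 of the 8 treated rats, and treated rat 4 lay below vehicle rats 3 and 4. The means were 12.11 ± 0.30 (SD, n = 8) in treated and 11.53 ± 0.78 (SD, n = 4) in vehicle rats. The difference was 0.58 (SE 0.25), or 1.50-fold with a 95% interval of 1.03 to 2.17, and its adjusted p in limma was 0.781. The fit assumes a common spread, and the wider spread lay in the smaller group, so the SE and interval are likely too narrow. The median SD over all probe sets was 0.106 in treated and 0.081 in vehicle rats. Vehicle rat 1 carried much of the difference, which was 0.25 without it, 0.85 without vehicle rat 3 and 0.94 without vehicle rat 3 and treated rat 4 together.

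**Figure D1:**
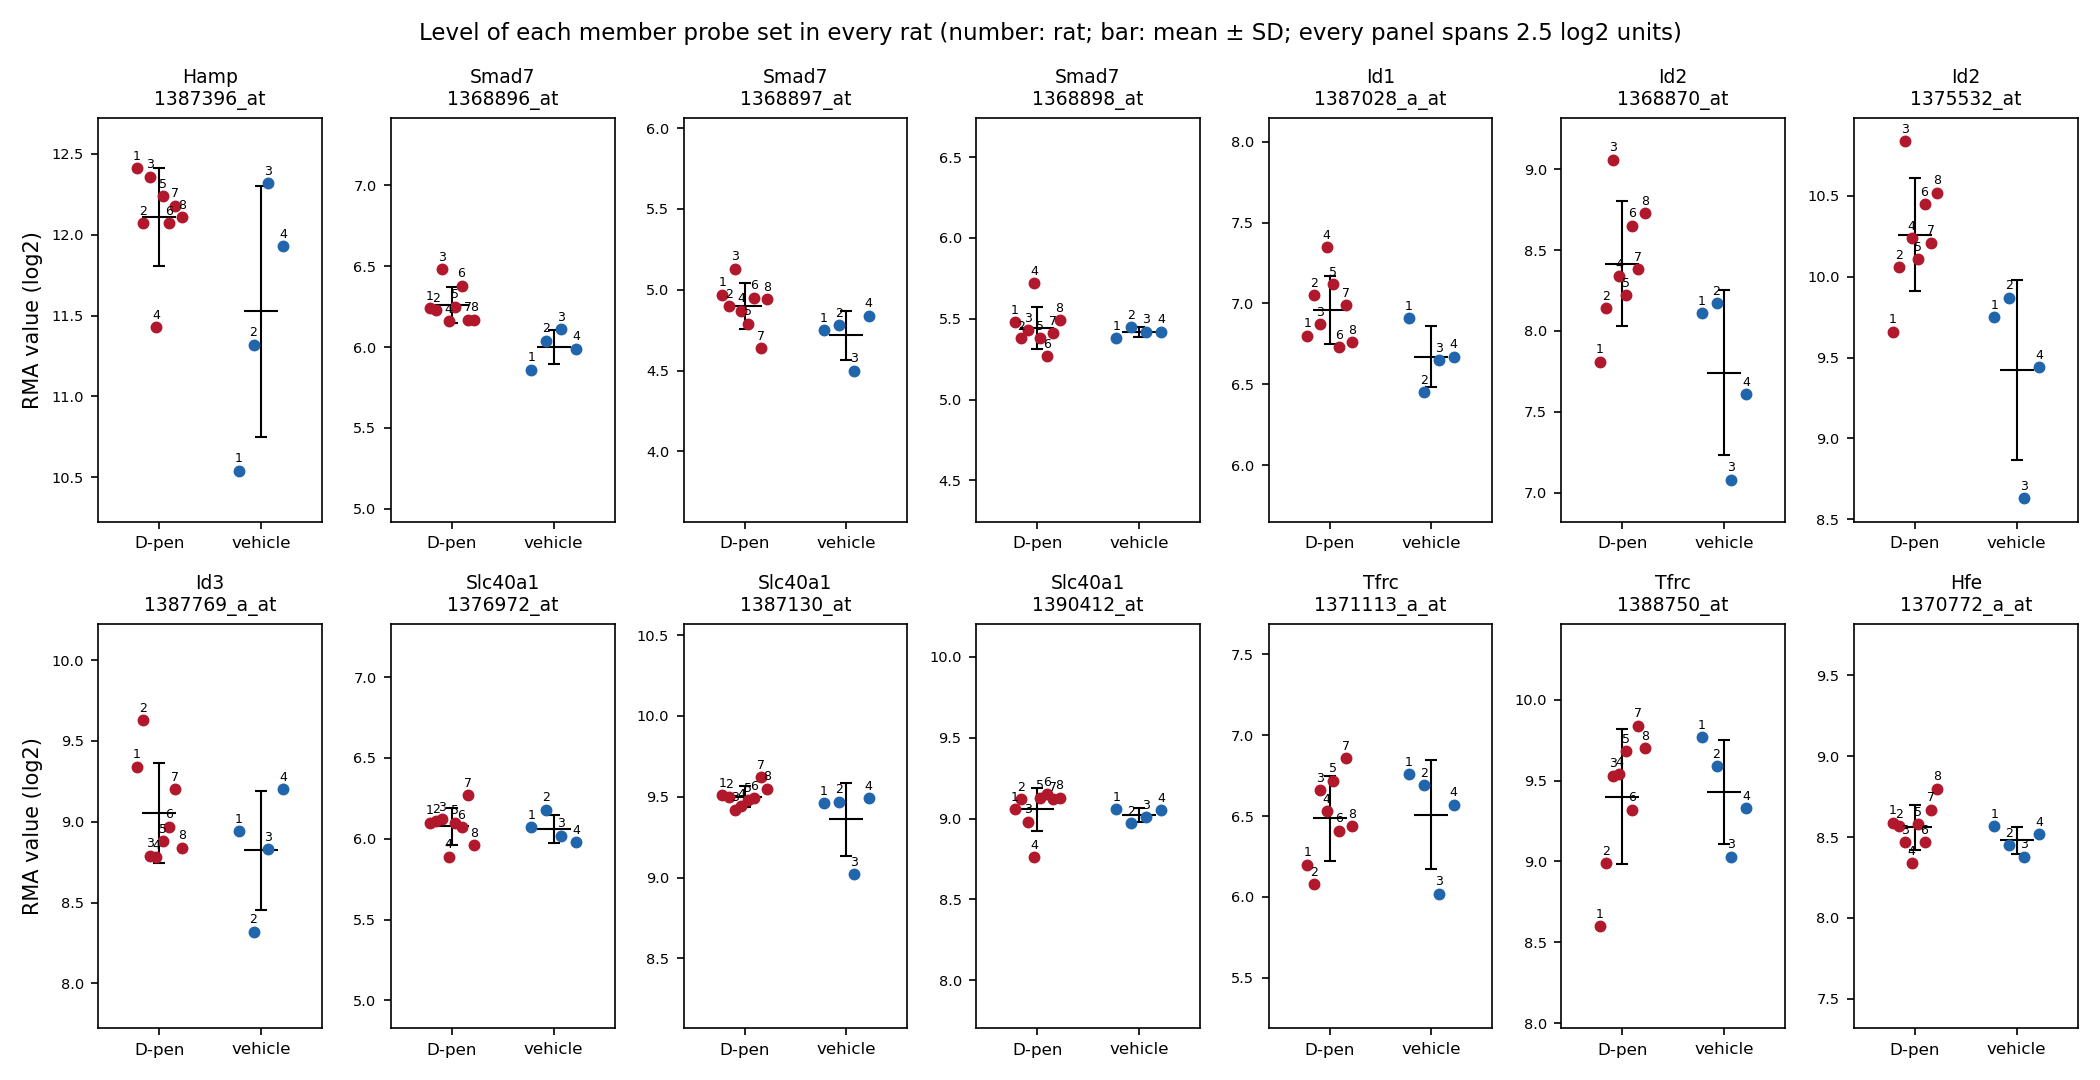
RMA level (log2, y axis) of each of the 14 member probe sets in every rat, with D-penicillamine rats (n = 8) left of vehicle rats (n = 4), numbers giving the rat and bars the mean ± SD. The Hamp values of vehicle rats spread from 10.54 to 12.32, and the first Smad7 probe set is the only panel in which the groups do not overlap.

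Smad7, an inhibitor that feeds back on BMP and TGF-beta receptors, was the member whose groups separated, on 1 of its 3 probe sets. On probe set 1368896_at the level in treated rats ran from 6.16 through a median of 6.24 to 6.48, and in vehicle rats it was 5.86, 6.04, 6.11 and 5.99. Every treated rat thus lay above every vehicle rat, as happened for 0.195% of all probe sets. The signal was modest, with a mean of 6.17 over all rats beside array medians of 6.3 to 6.35. The difference was 0.26 (SE 0.066), or 1.20-fold with a 95% interval of 1.09 to 1.32, and its adjusted p in limma was 0.556. It stayed between 0.21 and 0.30 on leaving out each rat.

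The other Smad7 probe sets differed less. On 1368897_at the level was 4.64 to 5.13 in treated rats and 4.50 to 4.84 in vehicle rats, with a difference of 0.18 (SE 0.081) that was 0.11 without vehicle rat 3. On 1368898_at it was 5.27 to 5.72 in treated rats and 5.38 to 5.45 in vehicle rats, with a difference of 0.028 (SE 0.065). Without treated rat 4, the highest there at 5.72, that difference was -0.012. Over the 8 treated rats the first 2 probe sets had a Pearson r of 0.70 (exact permutation p = 0.0608, adjusted p = 0.162 over 8 such pairs), and r was 0.25 without the 2 rats farthest from the median. Probe sets 1368896_at and 1368898_at had an r of -0.49 (exact permutation p = 0.225, adjusted p = 0.258), and 1368897_at and 1368898_at an r of 0.00038 (exact permutation p = 1).

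The Id genes encode helix-loop-helix proteins that lack a DNA-binding region and hold back the factors they pair with. Id2 had the largest difference of the members. On probe set 1375532_at its level in treated rats ran from 9.66 through a median of 10.23 to 10.84, and in vehicle rats it was 9.75, 9.87, 8.63 and 9.44. Of the treated rats 7 lay above every vehicle rat, and treated rat 1 lay among them. The means were 10.26 ± 0.35 (SD, n = 8) in treated and 9.42 ± 0.56 (SD, n = 4) in vehicle rats. The difference was 0.84 (SE 0.22), or 1.79-fold with a 95% interval of 1.30 to 2.46, and its adjusted p in limma was 0.566. The SD was again larger in the smaller group, so this interval too is likely too narrow.

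The second Id2 probe set, 1368870_at, gave 7.81 to 9.06 in treated rats and 8.11, 8.17, 7.08 and 7.61 in vehicle rats, with a difference of 0.67 (SE 0.22). Vehicle rat 3 was the lowest of all 12 rats on both. Without it the differences were 0.57 and 0.45, and in a fit that also held the 3′ minus 5′ control value they were 0.62 (SE 0.21) and 0.50 (SE 0.23). That control value stood apart only in vehicle rat 3, so the fit is not a separate check from leaving this rat out. Both probe sets ordered the treated rats nearly alike, with a Pearson r of 0.99 (exact permutation p = 4.96e-05, adjusted p = 3.97e-04 over 8 pairs) and a Spearman rho of 0.98 (exact permutation p = 3.97e-04). The r remained 0.99 without the 2 rats farthest from the median.

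**Figure D2:**
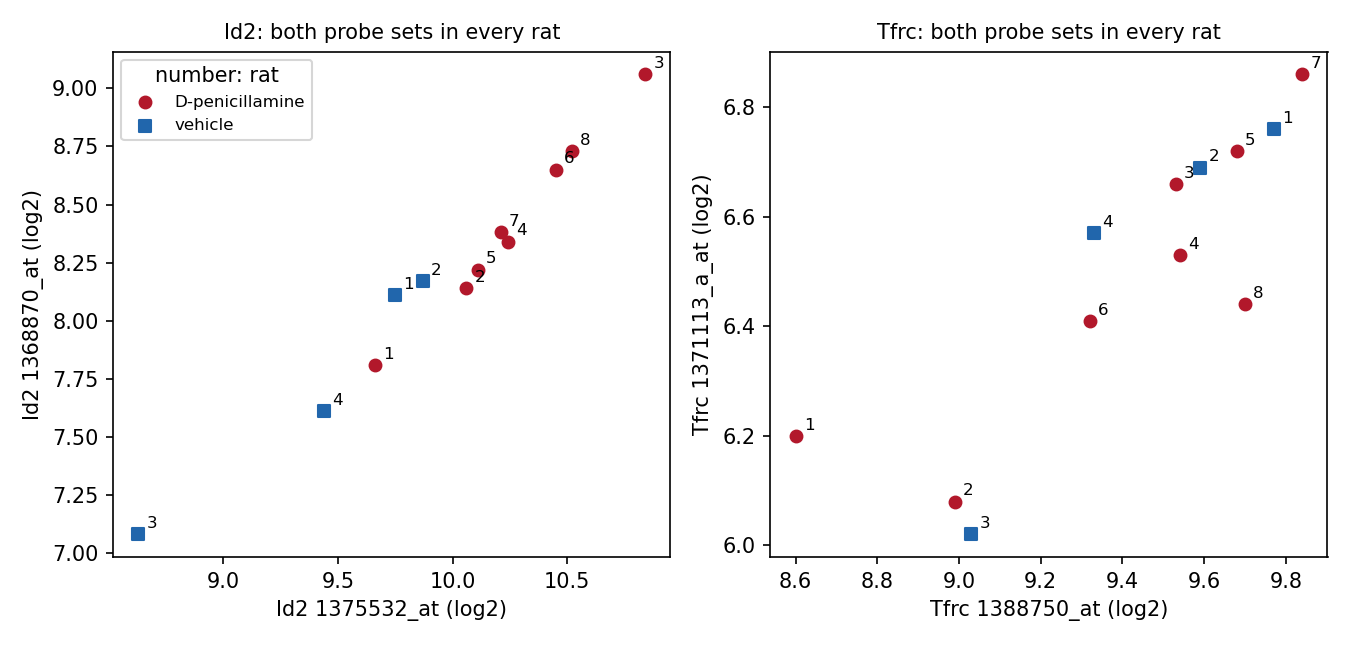
Level (log2) on 1 probe set against the other for Id2 (left) and Tfrc (right), 1 point per rat, circles for D-penicillamine rats (n = 8) and squares for vehicle rats (n = 4), numbers giving the rat. The Id2 points lie close to a line, with r = 0.99 over treated rats, and the Tfrc points lie more loosely, with r = 0.85.

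Id1, the Id gene most often used as a readout of BMP signalling in liver, had a level of 6.73 to 7.35 in treated rats, with a median of 6.93. In vehicle rats it was 6.91, 6.45, 6.65 and 6.67. All 8 treated rats lay above the vehicle mean, and 4 of them above every vehicle rat, of which vehicle rat 1 was the highest. The difference was 0.29 (SE 0.11), or 1.22-fold with a 95% interval of 1.04 to 1.43, and it stayed between 0.22 and 0.37 on leaving out each rat. Id3 ran from 8.78 through a median of 8.93 to 9.63 in treated rats and was 8.94, 8.32, 8.83 and 9.20 in vehicle rats. Its groups overlapped, with 6 treated rats inside the range of the vehicle rats and 2 above it. The difference was 0.23 (SE 0.17, 95% interval -0.13 to 0.59), and without vehicle rat 2 it was 0.064.

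Of the iron genes, none separated the groups. Slc40a1, the exporter that hepcidin acts on, had 3 probe sets. On 1387130_at the level was 9.42 to 9.62 in treated rats and 9.46, 9.47, 9.02 and 9.49 in vehicle rats. Vehicle rat 3 alone lay apart, and the difference of 0.14 (SE 0.076) was 0.028 without it and 0.016 (SE 0.046) in the fit that also held the 3′ minus 5′ control value. As for Id2, these are not separate checks, since the control value stood apart only in that rat. The other probe sets differed by 0.034 (SE 0.066) on 1390412_at and 0.015 (SE 0.063) on 1376972_at. Their 95% intervals were -0.11 to 0.18 and -0.12 to 0.15. Without treated rat 4, the lowest treated rat on both, the differences were 0.076 and 0.042. Over the 8 treated rats r between pairs of these 3 probe sets was 0.50 for 1376972_at and 1387130_at, 0.56 for 1376972_at and 1390412_at, and 0.57 for 1387130_at and 1390412_at (exact permutation, adjusted p = 0.258 for each). Spearman's rho was 0.18, -0.10 and 0.37 in that order, and without the 2 rats farthest from the median r was -0.75, -0.45 and 0.71, so the first 2 positive values rested on those rats.

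Tfrc, the transferrin receptor, varied widely among rats of both groups. On 1388750_at the level ran from 8.60 through a median of 9.54 to 9.84 in treated rats, and it was 9.77, 9.59, 9.03 and 9.33 in vehicle rats. Treated rats 1 and 2 (8.60 and 8.99) were the lowest of all 12, below vehicle rat 3. The difference was -0.030 (SE 0.20, 95% interval -0.46 to 0.40) on this probe set and -0.0225 (SE 0.15) on 1371113_a_at. The sign of both was positive without treated rat 1, treated rat 2, vehicle rat 1 or vehicle rat 2. The probe sets agreed over treated rats, with a Pearson r of 0.85 (exact permutation p = 0.00665, adjusted p = 0.0266 over 8 pairs) and 0.81 without the 2 rats farthest from the median. Their Spearman rho was 0.81 (exact permutation p = 0.0218).

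Hfe, which encodes a membrane protein that takes part in sensing transferrin-bound iron, had a level of 8.34 to 8.80 in treated rats, with a median of 8.58. In vehicle rats it was 8.57, 8.45, 8.38 and 8.52. Its values overlapped, with 4 treated rats above every vehicle rat and 1 below every vehicle rat. The difference was 0.081 (SE 0.072, 95% interval -0.072 to 0.23).

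**Figure D3:**
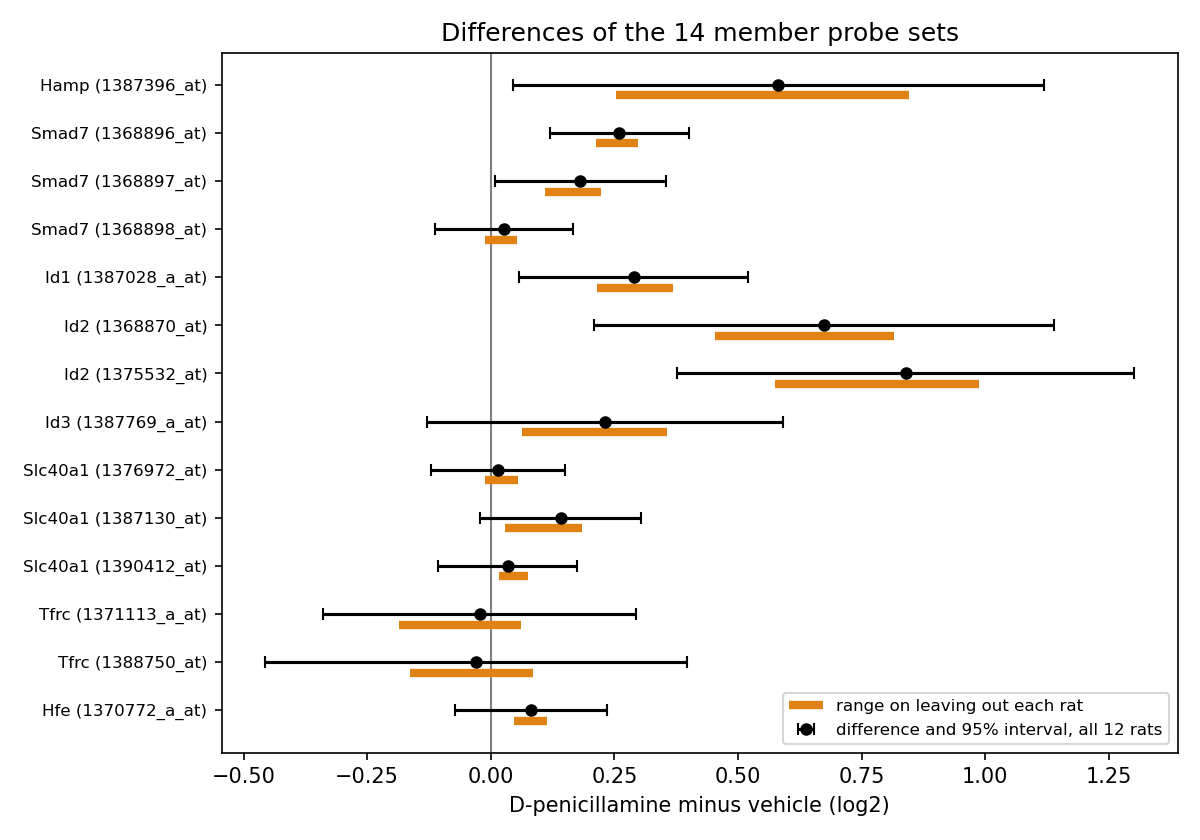
D-penicillamine minus vehicle (log2, x axis) for each member probe set, with the 95% interval of the limma fit on 12 rats (black) and, below it, the range of the difference on leaving out each rat in turn (orange). Hamp has the widest orange range, 0.25 to 0.85, and the ranges of both Tfrc probe sets, 1368898_at of Smad7 and 1376972_at of Slc40a1 cross 0.

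Whether rats with more Hamp also had more of the other members was asked within the treated group, which does not use the difference between groups. For each gene the probe set with the highest mean was taken, and 7 relations were computed over 8 rats. None passed adjustment in the exact permutation test, where the smallest adjusted p was 0.441 and 0 of 7 had an unadjusted p under 0.05. The Pearson r with Hamp was 0.44 for Smad7 (exact permutation p = 0.271), -0.69 for Id1 (exact p = 0.0630), -0.059 for Id2 (exact p = 0.864) and 0.27 for Id3 (exact p = 0.523). Spearman's rho was 0.51, -0.23, -0.17 and 0.18 in that order, with exact permutation p of 0.200, 0.588, 0.694 and 0.674, and an adjusted p of 0.851 for each of the 7 relations. The value for Id1 rested on treated rat 4, which had the lowest Hamp and the highest Id1 (7.35) of its group: r was -0.030 without it, and 0.23 without rats 1 and 4, the rats farthest from the median of Hamp.

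For the iron genes r with Hamp was 0.23 for Slc40a1 (exact permutation p = 0.545), -0.25 for Tfrc (exact p = 0.531) and 0.51 for Hfe (exact p = 0.211). Spearman's rho was 0.084, -0.11 and 0.43, with exact permutation p of 0.851, 0.807 and 0.287. With the mean of all probe sets of a gene in place of the brightest, r was 0.69 for Slc40a1 (exact permutation, adjusted p = 0.418) and -0.022 for Smad7 (adjusted p = 0.946 in the same exact test), so both values depended on the probe set. Without rats 1 and 4 the r of the brightest probe sets were -0.45 for Slc40a1, 0.45 for Tfrc and -0.30 for Hfe, all of the opposite sign. The sign also turned for Id1 (0.23), Id2 (0.50) and Id3 (-0.54), and only Smad7 kept its sign, at 0.51. When all 12 rats entered, each less its group mean, r was 0.58 for Smad7 (permutation p = 0.0491), -0.51 for Id1 (permutation p = 0.0917) and -0.51 for Id2 (permutation p = 0.0839), and the smallest adjusted p was 0.189. The r was 0.20 for Id3 (permutation p = 0.543), -0.46 for Slc40a1 (permutation p = 0.140), -0.49 for Tfrc (permutation p = 0.108) and 0.0062 for Hfe (permutation p = 0.985). Hamp deviated most in vehicle rats 1 (-0.99) and 3 (0.79), so the r over 12 rats lean on the vehicle rats. The permutation exchanged values between groups of unlike spread, so its p are approximate.

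**Figure D4:**
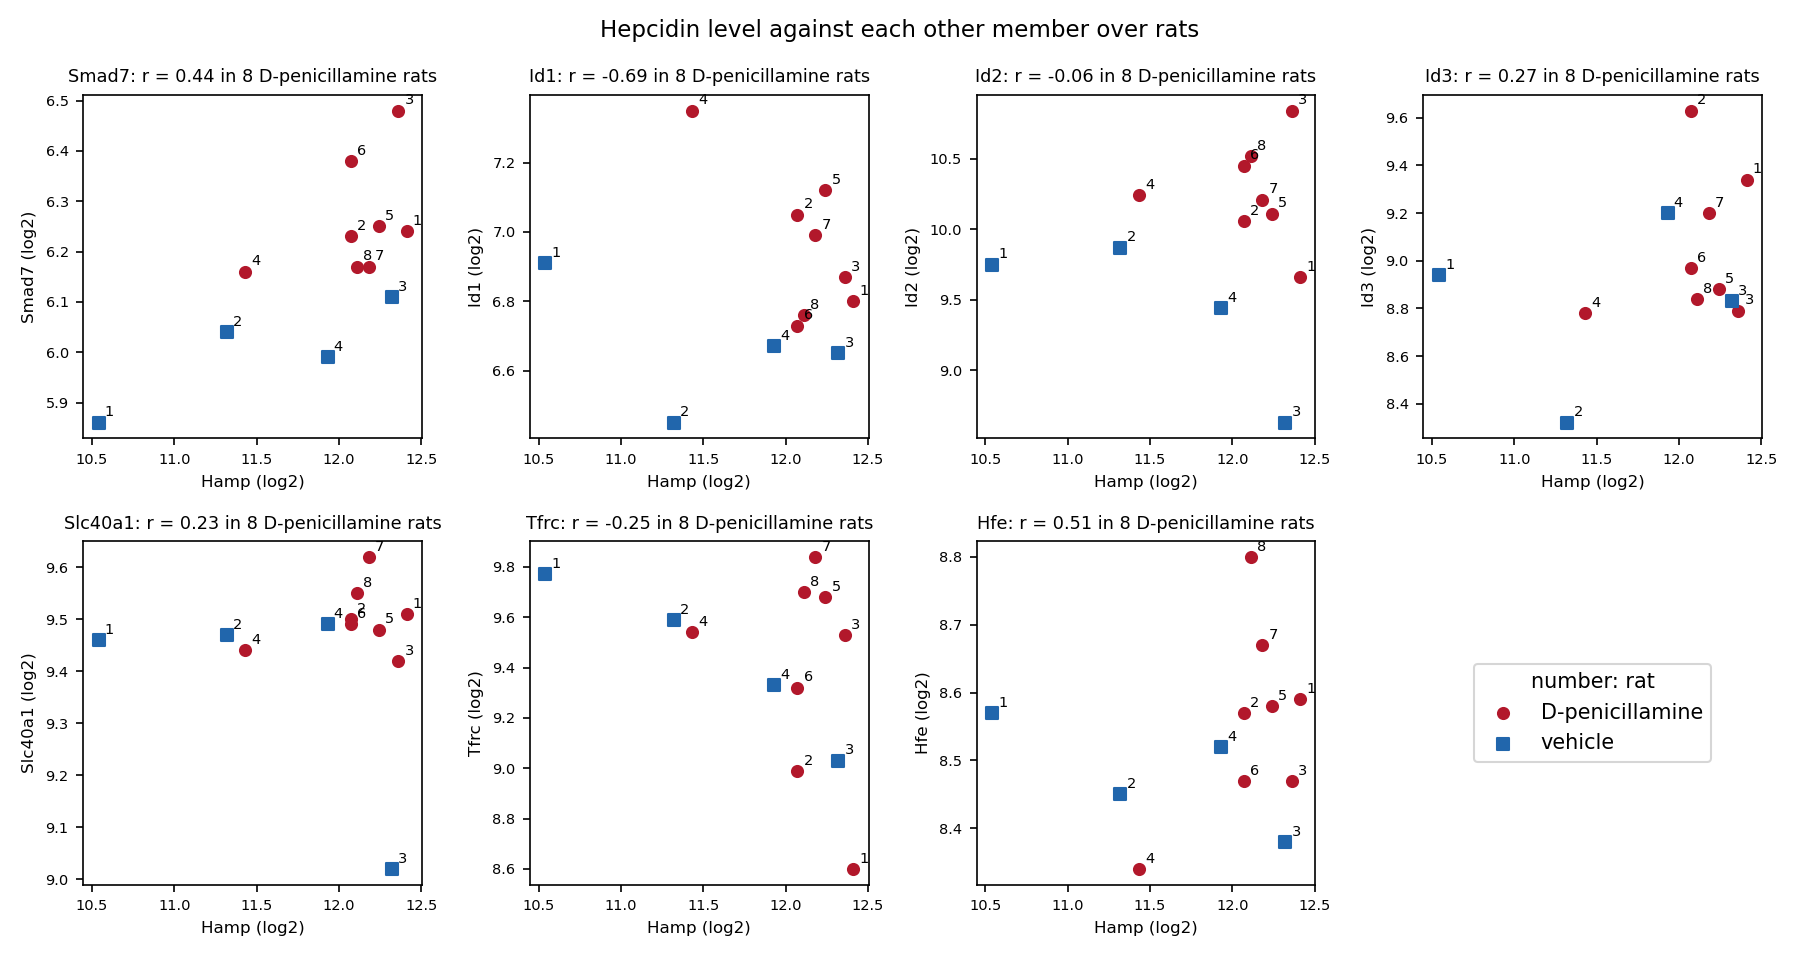
Level of each other member (log2, y axis) against Hamp (log2, x axis), circles for D-penicillamine rats (n = 8) and squares for vehicle rats (n = 4), numbers giving the rat. Treated rat 4, at a Hamp of 11.43, stands apart from the other treated rats, which lie between 12.07 and 12.41.

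The genes whose rat-to-rat pattern was most like that of Hamp were found among 10410 other genes, by Pearson r over 12 rats after each value was reduced by its group mean. They were Lrp3 (r = 0.93), Mrpl2 (0.91), Fbxl5 (0.90), Aspg (0.88) and Ehmt2 (0.88), where the gene at rank 100 had r = 0.74. Without vehicle rat 1, in which Hamp deviated most, r was 0.88, 0.84, 0.85, 0.80 and 0.82 in that order. For Id1 the most alike genes were Slc17a7 (0.93), Mmrn2 (0.90), Nefm (0.89), Xrcc4 (0.89) and Tspan33 (0.89), and rank 100 lay at 0.75. Of these Id1-like genes only Tspan33 had group means above the array medians of 6.3 to 6.35, and the others lay at 4.37 to 5.93. Treated rat 4, the array farthest from its group mean, had the highest Id1, and its part in these r was not tested. Differences between groups were within ±0.11 for all 10, from 0.10 (SE 0.065) for Lrp3 to -0.089 (SE 0.061) for Fbxl5. These r are the highest of a large search over few rats and carry no test.

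The rest of the BMP pathway showed no common direction. Of 32 listed ligands, receptors, SMADs, inhibitors and targets 26 were measured, 14 higher and 12 lower in treated rats (median 0.010), and 0 passed the limma fit (background 0%). The receptor Acvr1, which transmits BMP signals in hepatocytes, differed by 0.29 (SE 0.058), with 5.89 to 6.16 in treated rats and 5.67 to 5.82 in vehicle rats. The receptor Acvrl1, known from endothelial cells, differed by -0.14 (SE 0.044), with 5.33 to 5.45 in treated rats and 5.48 to 5.64 in vehicle rats. For neither gene did the groups overlap, as in 0.195% of all probe sets on the higher and 0.378% on the lower side, and the adjusted p in limma were 0.461 and 0.693. Both genes lay below the array medians of 6.3 to 6.35 in every rat. Bmp6, the main ligand upstream of hepcidin in mice, differed by -0.030 (SE 0.054) and by -0.050 (SE 0.060) on its other probe set. The SMAD gene Smad9 was at -0.12 (SE 0.059), or -0.075 without vehicle rat 1, and the BMP antagonist Nog at 0.081 (SE 0.043). The Nog level was low, at 3.84 to 4.03 in treated and 3.81 to 3.85 in vehicle rats. Id4, a further Id gene named after its value was seen, lay on the lower side at -0.14 (SE 0.13), with 7.93 to 8.73 in treated rats and 8.18 to 8.64 in vehicle rats, and its other probe set differed by -0.244. Hjv and Tmprss6, the co-receptor and the protease that cleaves it, were not analysed here.

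Of the endothelial markers, given beside Acvrl1, 5 of 6 measured lay lower in treated rats (median -0.048), and their mean level was 7.39 to 7.65 in treated rats and 7.45 to 7.80 in vehicle rats. Of 7 markers of Kupffer cells, the liver macrophages that also export iron through Slc40a1, all lay higher in treated rats (median 0.12), and their mean level was 8.34 to 8.53 in treated rats against 8.24 to 8.47 in vehicle rats. Among the red cell markers 3 of 4 were positive (median 0.048), at 8.14 to 8.92 in treated and 8.18 to 8.83 in vehicle rats. For stellate cells and fibroblasts 6 of 8 markers were lower in treated rats (median -0.071), at 6.51 to 6.77 in treated and 6.52 to 6.78 in vehicle rats. In none of these marker lists did a gene pass the limma fit. The part of these cells in the members' values was not tested, and in whole liver fewer cells of a type and less RNA per cell cannot be told apart.

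Genes of cellular iron handling leaned neither way. Of 25 listed, 17 were measured, 8 higher and 9 lower in treated rats (median -0.020), and 0 passed. Lcn2, a secreted protein that binds bacterial iron carriers, differed by 1.01 (SE 0.50), with 6.45 to 9.84 in treated rats and 6.32 to 6.43 in vehicle rats. Its groups did not overlap, as in 0.195% of all probe sets on the higher side, and without treated rat 8 the difference was 0.66. Ireb2, an iron regulatory protein that stabilises Tfrc mRNA, was at 0.27 (SE 0.15), or 0.073 without vehicle rat 3. Slc39a14, a transporter that takes up iron not bound to transferrin, was at 0.20 (SE 0.087), and Mon1a, a protein of vesicle traffic, at -0.12 (SE 0.062). Of 15 measured genes of haem metabolism, out of 22 listed, 7 were positive, 8 were negative and 0 passed, with a median of -0.026. The 4 with the smallest p were the folate and haem carrier Slc46a1 at -0.20 (SE 0.10), the haem scavenger Hpx at 0.068 (SE 0.049), its receptor Lrp1 at 0.10 (SE 0.074) and the porphyrin transporter Abcb6 at -0.078 (SE 0.062). On leaving out each rat Slc46a1 ran from -0.24 to -0.12, Hpx from 0.042 to 0.081, Lrp1 from 0.062 to 0.18 and Abcb6 from -0.11 to -0.046.

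The interleukin-6 side of hepcidin control had 11 measured genes of 15 listed, of which 9 were positive, 2 were negative and 0 passed, with a median of 0.073. Il6r, the receptor, differed by 0.58 (SE 0.13), with 8.26 to 8.94 in treated rats and 7.71 to 8.47 in vehicle rats. The factors Cebpa, which binds the hepcidin promoter in mice, and Cebpb were at 0.33 (SE 0.16) and 0.32 (SE 0.19), and Cebpa was at 0.17 without vehicle rat 3. Stat3 was at 0.14 (SE 0.17), or 0.012 without treated rat 4, and at 0.34 (SE 0.17) on its other probe set. Its feedback inhibitor Socs3 was at 0.031 (SE 0.055), and Il6 itself at 0.060 (SE 0.046). The Il6 level was 4.10 to 4.29 in treated and 4.04 to 4.14 in vehicle rats, well below the array medians of 6.3 to 6.35. At so low a signal its difference says little about Il6 expression.

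**Figure D5:**
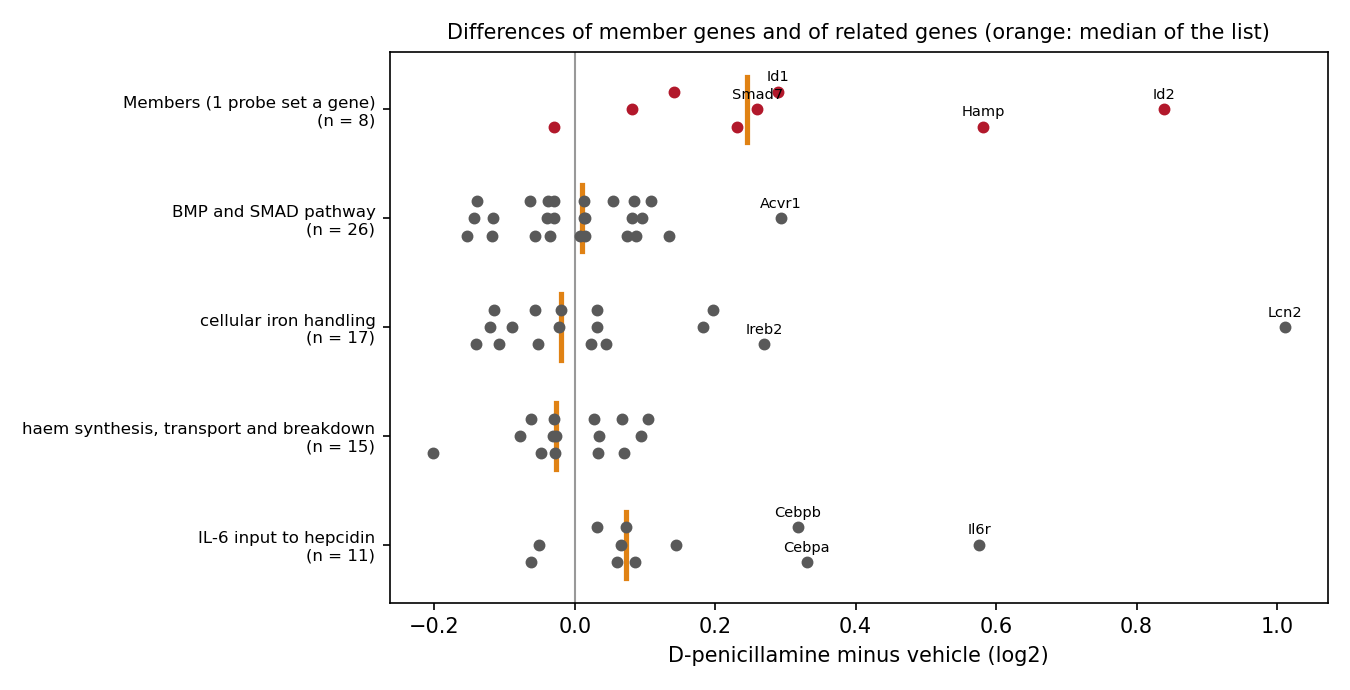
D-penicillamine minus vehicle (log2, x axis) for 8 member genes (red, the probe set with the highest mean) and for related genes in 4 lists (grey), 1 point per gene, with the median of each list in orange. The medians of the lists lie between -0.026 and 0.073, and that of the members, which were chosen with these differences known, at 0.25.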

How the data were processed

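The authors deposited 1 table of log2 values for 15923 probe sets and 12 arrays, made with RMA per the submitters' processing notes; no source used here gives its version or a genome build. The deposited scan records gave chip lot, day and order (other text, not measurements, per the file headers). Values were used as deposited, without 57 array controls. RMA gives no detection call, its quantile step hides any shift shared by most transcripts, and precision is limited by how many arrays there are. Names came from the platform annotation, updated by gene identifier to GRCr8: 12783 probe sets had 1 symbol, 312 several and 2771 none.

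Groups came from the titles, and labels name individual rats. D-penicillamine was compared with vehicle in limma 3.58.1 (R 4.3.3; lmFit, eBayes, two-sided) with p adjusted over all 15866 probe sets by Benjamini-Hochberg, threshold 0.05; the fit was tested on simulated data. Correlations used two-sided exact permutation over 8 rats, or 100000 resamples over 12 (scipy 1.17.1). Where a gene had several probe sets, the one with the highest mean stood for it. Members and gene lists were chosen with earlier results of these data known. Named genes are all members, up to 4 per list with the smallest p, 9 fixed genes (where a single-symbol probe set exists) and 5 per likeness search. The agreement between probe sets was added after seeing the data. Alternatives left out each rat or changed weights, normalization, filter, covariate, block or eBayes settings.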

Additional observations from a re-analysis of the deposited data

Results flagged for a closer look

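Among 30 groups of values examined (14 probe sets and the 3′ minus 5′ control difference in each group), 4 held a rat far from the others by Dixon's criterion, which chance alone meets in about 1 of 20 groups. Hamp in treated rat 4 was 11.43, and the next treated rat was at 12.07. Slc40a1 on 1390412_at in the same rat was 8.76, and the next treated rat was at 8.98. Slc40a1 on 1387130_at in vehicle rat 3 was 9.02, and the next vehicle rat was at 9.46. The 3′ minus 5′ control difference of vehicle rat 3 was 1.185, and the next vehicle rat was at 0.585.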

How the results depend on the processing

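The count of probe sets past an adjusted p of 0.05 in limma was 0 in the reported fit and in 18 of 20 alternatives. It was 2 with array weights, and between 0 and 1 on leaving out each rat, where 1 was reached without D-penicillamine rat 1. None of these calls was a member. Of 276 alternative values of the member differences 0 moved by over 1 SD between rats. Leaving out 1 rat can hardly move a difference that far, so this count says little about stability. Hamp ran from 0.25 to 0.94, and Slc40a1 on 1387130_at from 0.016 to 0.18. Of the 276 values 16 had the opposite sign. The opposite sign occurred on 5 of 14 probe sets, those of Tfrc (both), Slc40a1 (1376972_at and 1390412_at) and Smad7 (1368898_at), and 9 kept their sign in every alternative run. With the mean of all its probe sets Smad7 was at 0.16, Id2 at 0.76 and Slc40a1 at 0.063. Both groups have rats numbered 1 to 4, but deviations of same-numbered rats correlated at -0.15 to 0.21, and 2 of 4 treated rats correlated best with the vehicle rat of their number, so the numbers were not taken as pairs. With a replicate block over these numbers, without treated rats 5 to 8, 0 probe sets passed, with Hamp at 0.54, Id2 at 0.78 and 0.60, and Smad7 at 0.28 on its first probe set. In the 11 alternatives of the 7 correlations with Hamp, 0 passed, although with the mean of all probe sets r was 0.69 for Slc40a1 (0.23 with the brightest) and -0.022 for Smad7 (0.44 with the brightest).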

Other observations

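Among the 4 vehicle rats the order of Hamp was the reverse of the order of Tfrc. Hamp was 10.54, 11.32, 11.93 and 12.32 in vehicle rats 1, 2, 4 and 3, while Tfrc was 9.77, 9.59, 9.33 and 9.03 on 1388750_at and 6.76, 6.69, 6.57 and 6.02 on 1371113_a_at. Vehicle rat 3, at the end of this order, also had the 3′ minus 5′ control difference of 1.185. In the treated group rat 1 had the highest Hamp (12.41), the lowest Tfrc on 1388750_at (8.60) and the lowest Id2 (9.66 on 1375532_at), but on the Tfrc probe set 1371113_a_at it was at 6.20 and rat 2 was lowest at 6.08. Over all 8 treated rats r between Hamp and Tfrc was -0.25. These orders were noticed after seeing the data, and 4 rats are too few for a test of a correlation.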
